A study of Mus musculus with 8 samples.

Results

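The genes of the nuclear lamins and of the abundant high mobility group (HMG) chromatin proteins were examined in cultured mouse keratinocytes (KCs), the epithelial cells of the epidermis. The members were chosen by name, as the rows listed as Lmna, Lmnb1, Lmnb2, Hmgb1, Hmgb2, Hmgb3, Hmga1 and Hmga2, and are 8 of the 41457 genes listed for each sample. Wildtype C57BL/6 KCs (C57BL/6J in the study's text) were prepared from the tail skin of adult mice, received no treatment, and were kept in serum-free medium with little calcium for 1 week (4 samples) or 3 weeks (4 samples). Each sample is a bulk culture that was split when nearly confluent, and the labels give neither the number of passages nor the sex of the mice. The design text speaks of 4 independent experiments, and the study's text says that KCs of the same batches were grown for both times. No label ties a sample to an animal or states which samples share a batch. The p-values therefore set the difference between the times against the spread between these samples. Poly(A) RNA was sequenced, and the comparison asks which of these genes differ in RNA level between the short and the prolonged culture.

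Lamins are intermediate filament proteins that form a meshwork beneath the inner nuclear membrane and anchor chromatin there. A-type lamins are spliced from Lmna, whereas Lmnb1 and Lmnb2 encode the B-type lamins, and loss of lamin B1 is widely used as a marker of cellular senescence. HMGB proteins bend DNA through HMG boxes, HMGA proteins bind AT-rich DNA through AT hooks, and HMGA proteins have been described in the condensed chromatin foci of senescent human fibroblasts.

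Between 13896807 and 20026084 reads per sample were counted on exons at 1 week, and between 14096649 and 18127283 at 3 weeks. Levels are given as RPKM, which scales exon reads to the exon length and to the number of mapped reads. Log2 fold changes, 3 weeks over 1 week, and adjusted p-values are from edgeR's quasi-likelihood test of the exon reads over 12590 genes with enough reads, with a threshold of 0.05. Over all tested genes the log2 fold changes had a median of 0.03 in edgeR and of -0.16 on log2(RPKM + 0.1), so that falls look somewhat larger in RPKM than in edgeR. The KC marker genes summed to between 14122 and 16953 RPKM at 1 week and between 9322 and 10518 RPKM at 3 weeks, and 2 of these 8 genes, Krt5 and Itga6, were lower. Markers of other cells were low, with 3.16 to 5.15 against 2.43 to 4.84 RPKM for 7 fibroblast genes, 3.25 to 21.0 against 1.28 to 5.60 RPKM for 6 melanocyte genes, 15.9 to 20.9 against 8.74 to 13.9 RPKM for 6 immune cell genes, and 0.399 to 0.557 against 0.252 to 0.418 RPKM for 4 endothelial genes. Of these, 7 fibroblast, 4 melanocyte and 3 immune cell genes could be tested. In each of these lists 1 gene was lower (Pdgfrb, Pmel and Cd68), where 17.0% of all tested genes were lower. Most of the immune cell sum was Cd68, at 13.7 to 19.5 RPKM at 1 week and 5.09 to 12.5 RPKM at 3 weeks. Cd207 was at 0 in all samples, and the part of these cells in the results was not tested. In bulk samples, fewer cells of a type and less RNA per cell cannot be told apart.

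Of the 8 members, 5 were lower after 3 weeks and none was higher in edgeR, where 17.0% of all tested genes were lower, 15.7% were higher and 32.8% were called in either direction. The lower members were Lmnb1, Hmgb2, Hmgb1, Hmga1 and Lmnb2, whereas Lmna, Hmgb3 and Hmga2 did not pass the threshold. All 8 members had enough reads to be tested, with at least 171 exon reads in every sample. The members' median log2 fold change was -0.77. With samples paired as a block, either by replicate number or by a number in the file names, 4 members were lower, without Lmnb2. With unique exon reads the same 5 members were lower (18.7% of all genes tested on them), and with spliced reads, an alternative chosen after seeing the data, 4 of these were, without Lmnb2 (16.2% of all genes tested on them). At an unadjusted p under 0.05 none was higher either, and DESeq2 and limma gave the same 0 higher and 5 lower members. For 6 members the RPKM values of the time points did not overlap, and all 6 were lower at 3 weeks. Among all tested genes 26.2% were lower without overlap and 37.0% did not overlap in either direction.

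**Figure D1:**
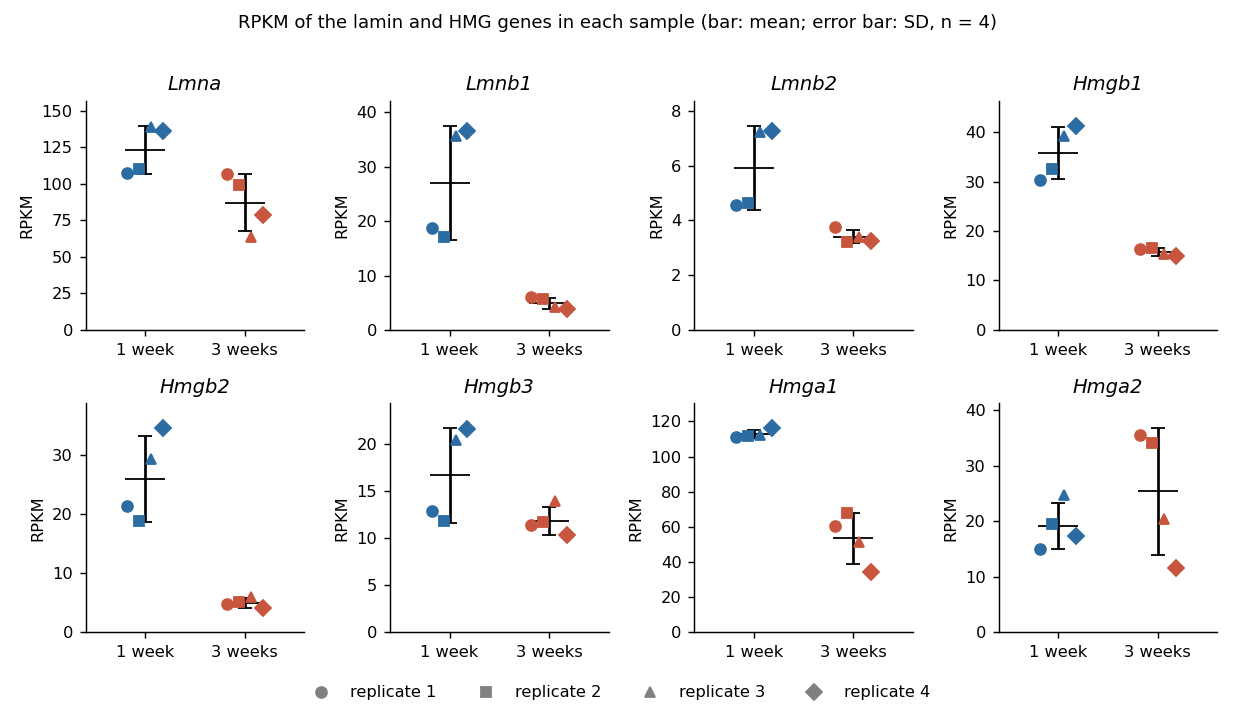
RPKM of each member (vertical axes, starting at 0) in the 4 samples cultured for 1 week (blue) and the 4 cultured for 3 weeks (red). Symbols mark replicate numbers, bars the mean and error bars the SD. Lmnb1 and Hmgb2 at 3 weeks lie far below every 1-week value, whereas Hmgb3 and Hmga2 overlap between the time points.

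Lmnb1 (ENSMUSG00000024590, chromosome 18 of GRCm38, 56707813 to 56753424, plus strand), the gene of lamin B1, had together with Hmgb2 the largest falls of the members, and which of the pair fell further depended on the alternative. Replicates 1 to 4 had 18.8, 17.1, 35.7 and 36.6 RPKM at 1 week and 5.98, 5.61, 4.23 and 3.93 RPKM at 3 weeks, and values of other genes are given in the same order. The lowest 1-week value was above the highest 3-week value, and the 1-week values formed a lower and a higher pair. Mean RPKM went from 27.0 ± 10.5 to 4.94 ± 1.01 (SD, n = 4), which is 5.47-fold lower. The log2 fold change in edgeR was -2.29 ± 0.29 (standard error), with an adjusted p of 0.000717. Omitting each sample in turn left it between -2.46 and -2.11, with adjusted p-values of at most 0.00341 in edgeR. By mean RPKM Lmnb1 went from place 1848 to place 6049 of all listed genes. All of its exon reads mapped to a single place, and no other gene overlaps it.

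For Lmnb2 (ENSMUSG00000062075, chromosome 10, 80901203 to 80918245, minus strand), the gene of lamin B2, the fall was smaller and less certain. It was at 4.55, 4.62, 7.23 and 7.26 RPKM at 1 week and 3.76, 3.22, 3.39 and 3.24 RPKM at 3 weeks. The groups did not overlap, and as for Lmnb1 replicates 3 and 4 at 1 week were higher than replicates 1 and 2. Mean RPKM went from 5.92 ± 1.54 to 3.40 ± 0.247 (SD, n = 4). In edgeR the log2 fold change was -0.63 ± 0.20 (standard error), with an adjusted p of 0.0373. In edgeR this call was lost when samples were paired by replicate number as a block (adjusted p = 0.0809) or by the number in the file names as a block (adjusted p = 0.0572). It was also lost in edgeR without 1 week replicate 3 (adjusted p = 0.0957) or 4 (adjusted p = 0.101), and without 3 weeks replicate 1 (adjusted p = 0.0678), 2 (adjusted p = 0.0982) or 4 (adjusted p = 0.0630). On reads spliced across exon junctions the log2 fold change of Lmnb2 was -0.72 with an adjusted p of 0.0532 in edgeR.

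Lmna (ENSMUSG00000028063, chromosome 3, 88480147 to 88509956, minus strand), the gene of lamins A and C, had the highest mean RPKM of the members at both times, although its 1-week range overlapped that of Hmga1. Only 22.8% of the exon reads of Hmga1 were unique. Hmga1b, a near copy of Hmga1 and not a member, had means of 263 and 126 RPKM. The order of Lmna and Hmga1 therefore depends on how reads that map to both copies were placed. It was at 108, 110.4, 139 and 137 RPKM at 1 week and at 106, 99.4, 63.9 and 78.6 RPKM at 3 weeks. The groups did not overlap, but the lowest 1-week sample and the highest 3-week sample lay next to each other. Its log2 fold change in edgeR was -0.35 ± 0.17 (standard error), short of the threshold with an adjusted p of 0.150. The alternatives (edgeR, DESeq2 and limma) gave Lmna adjusted p-values between 0.0513 and 0.295, always with a negative sign. Reads of lamin A and lamin C are not separated in these gene tables.

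Ratios within a sample do not depend on the scaling between samples, and they show how far the lamins differed from each other. The ratio of Lmna to Lmnb1 in RPKM was 5.73, 6.47, 3.88 and 3.73 at 1 week and 17.8, 17.7, 15.1 and 19.99 at 3 weeks. On the log2 scale the mean ratio rose by 1.87, a 3.65-fold change, and the two-sided exact permutation test (70 arrangements of the samples) gave p = 0.0286, which is the smallest it can give for 4 against 4 samples, and an adjusted p of 0.0343 over the 6 ratios examined. Lmnb2 also rose relative to Lmnb1, from between 0.199 and 0.271 to between 0.575 and 0.824 (log2 difference 1.63, exact permutation p = 0.0286, adjusted p = 0.0343). The ratio of Lmna to Lmnb2 overlapped between the time points, with a log2 difference of 0.24 (exact permutation p = 0.20, adjusted p = 0.20). Of the summed RPKM of the 3 lamin genes, Lmnb1 made up 16.8% ± 3.71 at 1 week and 5.21% ± 0.549 at 3 weeks (SD, n = 4), whereas Lmnb2 made up 3.74% ± 0.302 and 3.68% ± 0.784.

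**Figure D2:**
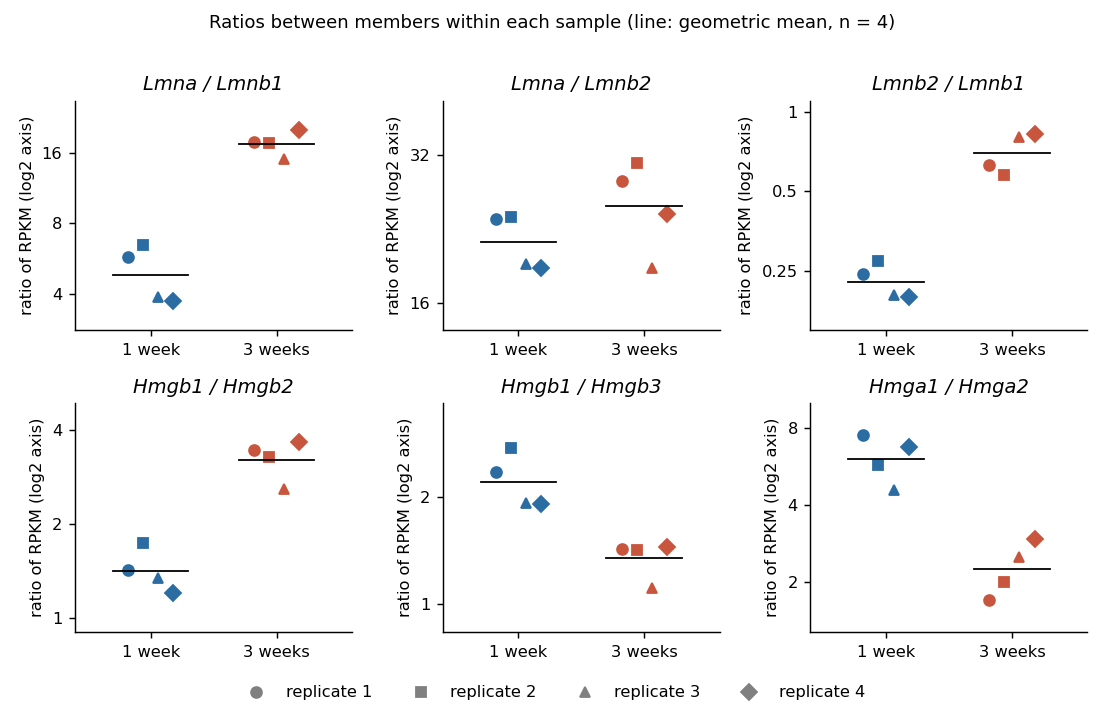
Ratio of RPKM between 2 members in the same sample (vertical log2 axes) at 1 week (blue) and 3 weeks (red). Points are samples, symbols mark replicate numbers and lines the geometric mean of 4 samples. The groups are apart in 5 of the 6 ratios and overlap for Lmna to Lmnb2.

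Upstream of their starts, the HMGB genes held more CCAAT boxes than the other members examined. CCAAT boxes and the cell cycle genes homology region (CHR) are promoter elements known from genes expressed in dividing cells. Among the 7 members with a RefSeq promoter window (GRCm38.p6), CCAAT on either strand occurred 4 times in the 250 bases before the start of Hmgb2, 3 times before Hmgb3, 3 times in 1 of the 2 windows of Hmgb1 and 1 time in 1 of the 2 windows of Lmna. Lmnb2, Hmga1 and Hmga2 had none, and Lmnb1 had no window. Of 32851 windows of that length 33.9% held CCAAT, 2.79% held it at least 3 times and 0.840% at least 4 times. The CHR, searched as TTTGAA or TTCGAA on both strands, occurred, among these 7 members, before Hmgb2 and Hmgb3 and in 17.2% of all windows. Both features together, at least 3 CCAAT and a CHR, were present in 0.451% of windows. A further motif that was searched, the E2F core (such as TTCCCGC), occurred before Hmga2 and in 1 of the 2 windows of Lmnb2. It occurred before no HMGB gene and in 7.89% of all windows. The GC box (GGGCGG on either strand) was also searched. It occurred in at least 1 window of each of these 7 members and in 32.7% of all windows. The TATA box (TATAAA on the forward strand) occurred in no window of these members and in 7.59% of all windows. The windows of Hmgb2 (chr8:57511593-57511842, plus strand) and Hmgb3 (chrX:71555667-71555916, plus strand) are shown because these genes share the elements, while the former passed the threshold as lower and the latter did not. They are written 5′ to 3′, with CCAAT and the CHR in capitals.
Hmgb2: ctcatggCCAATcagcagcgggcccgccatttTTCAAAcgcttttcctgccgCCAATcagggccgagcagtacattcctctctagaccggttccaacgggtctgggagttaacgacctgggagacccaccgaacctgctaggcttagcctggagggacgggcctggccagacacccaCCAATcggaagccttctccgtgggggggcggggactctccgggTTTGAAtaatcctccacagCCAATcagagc
Hmgb3: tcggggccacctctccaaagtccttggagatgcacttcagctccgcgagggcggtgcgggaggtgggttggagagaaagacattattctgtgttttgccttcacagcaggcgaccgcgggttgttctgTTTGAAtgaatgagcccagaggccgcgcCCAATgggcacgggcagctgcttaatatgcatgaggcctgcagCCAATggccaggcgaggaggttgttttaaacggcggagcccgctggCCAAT

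In the Hmgb2 window the CHR that lies nearest to the start begins 30 bases before it, and in the Hmgb3 window the CHR begins 122 bases before the start. No CCAAT overlapped a CHR. Matches of letters describe these windows and were not tested for function.

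Hmgb2 (ENSMUSG00000054717, chromosome 8, 57511907 to 57515999, plus strand) fell about as far as Lmnb1. Its values were 21.3, 18.7, 29.2 and 34.5 RPKM at 1 week and 4.72, 5.02, 5.94 and 4.08 RPKM at 3 weeks. Every 1-week sample was more than 3-fold above every 3-week sample. The mean went from 25.9 ± 7.26 to 4.94 ± 0.774 RPKM (SD, n = 4), which is 5.25-fold lower. In edgeR the log2 fold change was -2.21 ± 0.24 (standard error) and the adjusted p was 0.000433. Unique reads were 43.5% of its exon reads and gave -2.22 with an adjusted p of 0.000619 in edgeR. Omission of each sample in turn gave values between -2.40 and -2.05.

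Hmgb1 (ENSMUSG00000066551, chromosome 5, 149046702 to 149184489, minus strand), which encodes a chromatin protein that can also be released from cells as an alarmin, fell less. It was at 30.3, 32.4, 39.1 and 41.3 RPKM at 1 week and at 16.3, 16.5, 15.4 and 14.9 RPKM at 3 weeks. The 3-week samples varied little, with a coefficient of variation of 4.73% against 14.7% at 1 week, and the groups were far apart. Mean RPKM went from 35.8 ± 5.26 to 15.8 ± 0.747 (SD, n = 4), and edgeR gave -1.02 ± 0.13 (standard error) on the log2 scale (adjusted p = 0.000796). Only 11.5% of the exon reads of Hmgb1 were unique, so that its level is uncertain. Unique reads gave a smaller log2 fold change in edgeR, -0.74 ± 0.18 (adjusted p = 0.0132), and spliced reads gave -1.03 (adjusted p = 0.000566, edgeR). Every sample had more spliced than unique exon reads (576 against 308 in 1 week replicate 1), so that some spliced reads also map elsewhere. Hmgb1 as annotated also overlaps Uspl1, with 312 to 725 exon reads per sample, and several non-coding genes, and whether reads were assigned by strand is not stated.

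Hmgb3 (ENSMUSG00000015217, chromosome X, 71555918 to 71560676, plus strand) was at 12.9, 11.8, 20.4 and 21.6 RPKM at 1 week and at 11.4, 11.7, 13.9 and 10.3 RPKM at 3 weeks. The groups overlapped, because replicates 1 and 2 at 1 week lay within the range of the 3-week samples. Its log2 fold change in edgeR, -0.32 ± 0.23 (standard error), missed the threshold with an adjusted p of 0.332. Unique reads were 20.9% of its exon reads.

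Within the samples, the ratio of Hmgb1 to Hmgb2 was 1.43, 1.73, 1.34 and 1.20 at 1 week and 3.45, 3.29, 2.59 and 3.66 at 3 weeks. Every 3-week ratio was above every 1-week ratio (log2 difference 1.19, exact permutation p = 0.0286, adjusted p = 0.0343). Relative to Hmgb3, Hmgb1 fell by 0.72 on the log2 scale (exact permutation p = 0.0286, adjusted p = 0.0343), or by 0.45 with unique reads. Of the summed RPKM of the HMGB genes, Hmgb2 made up 32.8% ± 2.34 at 1 week and 15.1% ± 1.27 at 3 weeks (SD, n = 4), while Hmgb3 made up 21.0% ± 1.95 and 36.2% ± 2.15. On all exon reads Hmgb2 thereby went from place 2 to place 3 of the family. Unique reads were only 11.5% of the exon reads of Hmgb1, 43.5% of those of Hmgb2 and 20.9% of those of Hmgb3. In every 1-week sample Hmgb2 had the most unique exon reads of the family, with 523 against 308 for Hmgb1 and 119 for Hmgb3 in replicate 1. These shares and places therefore depend on how the other reads were placed.

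**Figure D3:**
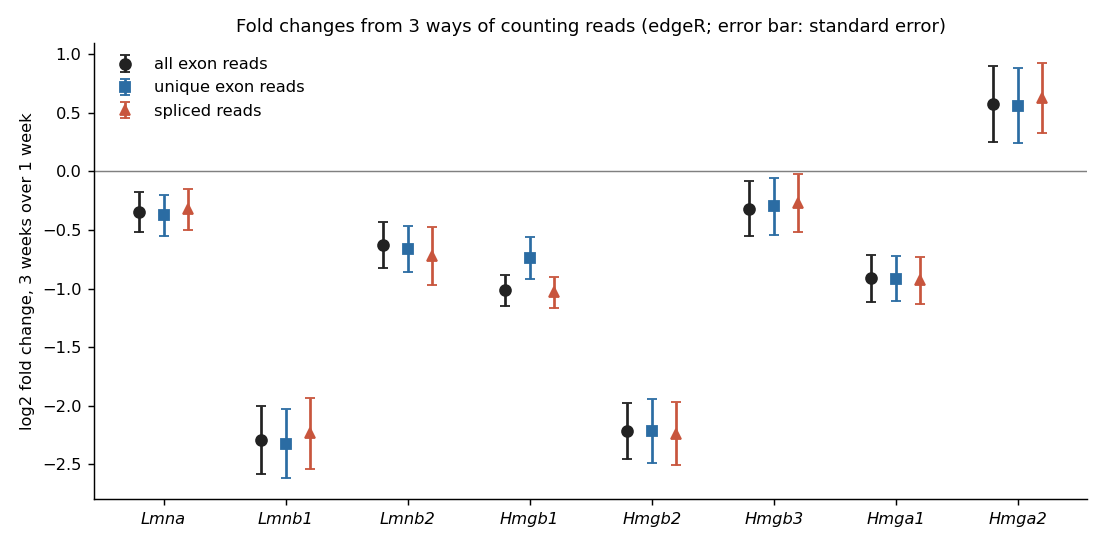
Log2 fold change, 3 weeks over 1 week, of each member (vertical axis) from all exon reads (black circles), unique exon reads (blue squares) and spliced reads (red triangles), with standard errors from edgeR. The estimates of a gene lie close together apart from Hmgb1, where unique reads gave -0.74 and all exon reads -1.02.

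Hmga1 (ENSMUSG00000046711, chromosome 17, 27556497 to 27563674, plus strand) was nearly constant among the 1-week samples, at 111, 112, 112 and 116 RPKM, and reached 60.3, 68.1, 51.4 and 34.0 RPKM at 3 weeks. All 3-week values were clearly lower, and replicate 4 was the lowest of them. The mean went from 113 ± 2.33 to 53.4 ± 14.6 RPKM (SD, n = 4), and edgeR gave -0.91 ± 0.20 (standard error) on the log2 scale (adjusted p = 0.00826). Unique reads were 22.8% of its exon reads. A near copy listed as Hmga1b on chromosome 11 (120762794 to 120764419) was at 249, 282, 264 and 258 RPKM and then at 139, 167, 120.4 and 77.1 RPKM. Both rows summed, an alternative chosen after seeing the data, gave a log2 fold change of -0.90 for Hmga1 (adjusted p = 0.0118, edgeR), and spliced reads on Hmga1 gave -0.93. For reads that map to both rows, the gene of origin cannot be told apart. Hmga1 also overlaps AI413582 and an antisense gene on the opposite strand, which had 118 to 270 and 12 to 31 exon reads per sample.

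Hmga2 (ENSMUSG00000056758, chromosome 10, 120361275 to 120476469, minus strand), which encodes an HMGA protein of embryonic and stem cells, was the member with a positive log2 fold change. It was at 14.9, 19.4, 24.7 and 17.3 RPKM at 1 week and at 35.4, 34.0, 20.4 and 11.6 RPKM at 3 weeks. At 3 weeks, 2 samples were above all 1-week samples, 1 lay within their range and replicate 4 was below all of them. Means of 19.1 ± 4.16 and 25.4 ± 11.4 RPKM (SD, n = 4) corresponded to a log2 fold change of 0.57 ± 0.32 (standard error) in edgeR, which missed the threshold with an adjusted p of 0.207. Without 3 weeks replicate 4 it was 0.82 with an adjusted p of 0.0136 in edgeR, and without 3 weeks replicate 1 it was 0.39 with an adjusted p of 0.438. The alternatives (edgeR, DESeq2 and limma) gave Hmga2 adjusted p-values between 0.0136 and 0.541. Non-coding genes that overlap Hmga2 had at most 3 exon reads in a sample.

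The ratio of Hmga1 to Hmga2 separated the time points although Hmga2 alone did not. It was 7.46, 5.75, 4.55 and 6.71 at 1 week and 1.70, 2.00, 2.52 and 2.94 at 3 weeks. The mean log2 ratio fell by 1.42 (exact permutation p = 0.0286, adjusted p = 0.0343), and unique reads gave the same call. Of the summed RPKM of Hmga1 and Hmga2, Hmga2 made up 14.4% ± 2.70 at 1 week and 31.0% ± 5.15 at 3 weeks (SD, n = 4). Hmga1b, with means of 263 RPKM at 1 week and 126 RPKM at 3 weeks, was counted in neither the ratio nor this share.

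The microRNAs of the let-7 family are known to repress Hmga2 through its long 3′ untranslated region. MicroRNAs were not measured here. The mature let-7a sequence in RefSeq is shown with its seed (bases 2 to 8) in capitals, followed by the 4 matches to that seed (CTACCTC, in capitals) in the longest annotated 3′ untranslated region of Hmga2 (3014 bases, GENCODE M21, GRCm38), because Hmga2 stood apart from the other members in this feature.
let-7a: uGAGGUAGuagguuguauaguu
Hmga2 match at chr10:120364217-120364239, minus strand: ttcaatttCTACCTCagcatcag
Hmga2 match at chr10:120362980-120363002, minus strand: cctcaataCTACCTCtgaatgct
Hmga2 match at chr10:120362542-120362564, minus strand: gcaaggaaCTACCTCcacacttc
Hmga2 match at chr10:120361684-120361706, minus strand: acacactaCTACCTCttaagtcc

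Hmga1 had 1 such match and the other 6 members had 0. Among 12058 tested genes with an annotated 3′ untranslated region 12.0% had a match, 1.63% had 2 or more, and 10 genes, Hmga2 included, had at least 4. Lin28b, whose product blocks the maturation of let-7, and Igf2bp1 were also among these 10 genes, with 4 matches each. Of the 4 tested genes of the LIN28 and IGF2BP families, 2 were higher at 3 weeks at a low level, where 15.7% of all tested genes were higher. Across alternatives the number of higher genes in these families ranged from 1 to 3. Lin28b went from 0.265 ± 0.136 to 0.615 ± 0.0509 RPKM (SD, n = 4; log2 fold change 1.39, adjusted p = 0.0173, edgeR) and Igf2bp3 from 0.118 ± 0.0476 to 0.476 ± 0.179 RPKM (log2 fold change 2.16, adjusted p = 0.00340, edgeR). Igf2bp1 and Igf2bp2 did not pass the threshold, and Lin28a was at 0 in all samples.

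Among the 1-week samples, replicates 3 and 4 were both above replicates 1 and 2 for 7 of the 8 members, Hmga2 being the exception, and for 31.5% of all tested genes. The lowest and the highest value differed by 2.14-fold for Lmnb1 and by 1.05-fold for Hmga1. The summed RPKM of 12 proliferation genes was 182, 168, 261 and 312 in the same samples and between 27.0 and 50.8 at 3 weeks. The melanocyte genes were split in the same way at 1 week, with sums of 4.76, 3.25, 15.5 and 21.0 RPKM. Sums of the fibroblast genes (3.69, 5.15, 3.34 and 3.16 RPKM) and of the endothelial genes were lower in replicates 3 and 4, and those of the KC and immune cell genes were not split. The part of these lists in the differences of the members was not tested. The names of the deposited files carry a further number, which the labels do not explain and which occurs at both times for 3 pairs of samples (46, 49 and 90). In all 3 pairs, 7 members had lower RPKM at 3 weeks, as had 37.1% of all tested genes, and in pair 90 all 8 members had, against 54.3% of the tested genes. Log2 ratios of RPKM for the pairs 46, 49 and 90 were -1.65, -2.67 and -3.22 for Lmnb1, and -2.17, -2.54 and -3.08 for Hmgb2. Lmnb2 had -0.28, -1.17 and -1.16, and Hmga1 had -0.88, -0.72 and -1.77. Hmga2 had both signs, with 1.25, 0.46 and -0.58. Lmna had -0.02 in pair 46 and -0.80 in pair 90, so that its level was nearly the same at both times in 1 of the pairs.

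**Figure D4:**
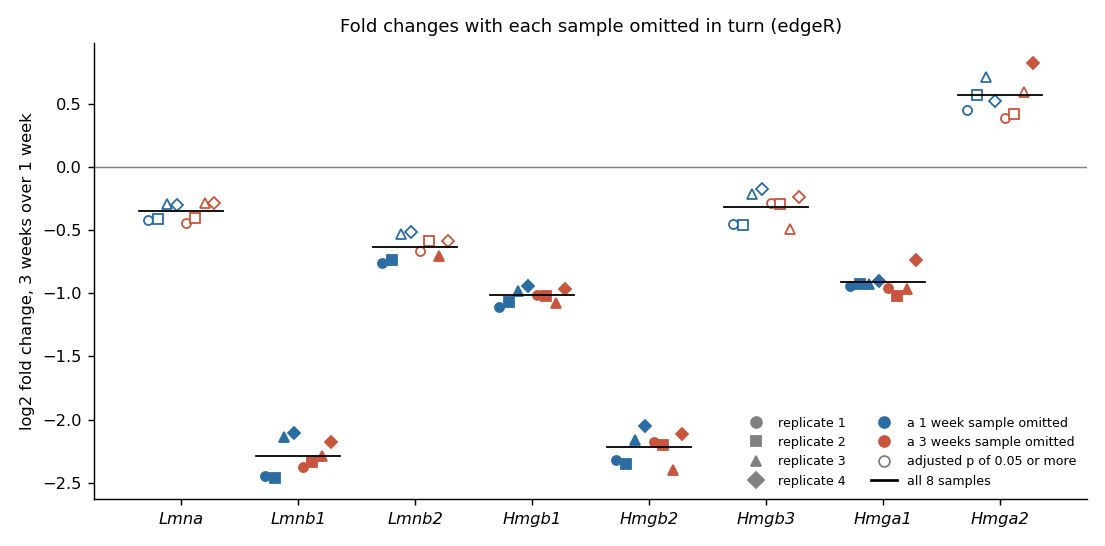
Log2 fold change of each member (vertical axis) with each of the 8 samples omitted in turn, coloured by the time point of the omitted sample, with symbols for its replicate number. Filled symbols have an adjusted p under 0.05 in edgeR and lines mark the value from all 8 samples. Hmga2 passes the threshold only when 3 weeks replicate 4 is omitted, and Lmnb2 loses it for 5 of the 8 omissions.

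Reads on introns gave a second, sparse readout. With these reads 4016 genes could be tested in edgeR, of which 4.56% were lower and 4.21% higher, and the members among them were Lmna, Hmgb1 and Hmga2. None passed the threshold, with log2 fold changes of 0.64 for Lmna (adjusted p = 0.249), -0.33 for Hmgb1 (adjusted p = 0.558) and 0.85 for Hmga2 (adjusted p = 0.266), all from edgeR. Lmnb1 had 34 intron reads in all 1-week samples and 29 in all 3-week samples, beside 5529 and 980 exon reads. Hmga2 had 63, 93, 52 and 50 intron reads at 1 week and 139, 122, 254 and 35 at 3 weeks. Of the 3-week samples, replicate 3 held the largest part of them.

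Genes around the members were taken from lists of related function. Of 17 genes for partners of the lamina and for lamin processing, 3 were lower and 3 higher at 3 weeks, with a median log2 fold change of 0.09. Over all tested genes 17.0% were lower and 15.7% higher, so that these shares are near those of all genes. Tmpo, the gene of the lamina-associated polypeptide LAP2, fell from 22.1 ± 2.01 to 5.15 ± 0.644 RPKM (SD, n = 4; log2 fold change -1.93, adjusted p = 0.000164, edgeR). Lbr, the gene of the lamin B receptor, fell from 18.9 ± 3.20 to 5.69 ± 1.77 RPKM (log2 fold change -1.57, adjusted p = 0.00183, edgeR), and Banf1, which encodes a DNA-bridging protein of the nuclear envelope, had -0.76 (adjusted p = 0.0245, edgeR). Sun2, which encodes an inner membrane protein that links the lamina to the cytoskeleton, rose by 0.97 (adjusted p = 0.00247, edgeR). Tor1aip1 and Icmt were the other higher genes, but their RPKM values overlapped. The protease gene Zmpste24, which acts on prelamin A, the farnesyltransferase genes Fnta and Fntb, and Emd did not pass the threshold. Across alternatives the number of higher genes in this list ranged from 1 to 5.

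Of 13 further genes of HMG-box and HMGN proteins, 2 were lower and 0 higher in edgeR, with a median of -0.10, and the share that was lower is again near the 17.0% of all tested genes. These were Hmgn2, which encodes a nucleosome-binding protein, at -1.53 (adjusted p = 0.000764, edgeR) and Ssrp1, a subunit of the histone chaperone FACT, at -0.79 (adjusted p = 0.000767, edgeR). Hmgn1, Hmgn3 and Hmgn5 did not pass the threshold. Among 14 genes of heterochromatin and histone chaperones, 7 were lower and 0 higher, with a median of -0.49. The histone H3 lysine methyltransferase genes Suv39h2 and Suv39h1 had log2 fold changes of -1.93 and -1.56, the heterochromatin protein gene Cbx5 had -1.13 and the macroH2A gene H2afy2 had -0.91 (adjusted p of at most 0.00797 in edgeR). Hira, Cbx3 and Trim28 were also lower. Of 7 genes of HMGB1 receptors and their signalling, 4 could be tested, where 15.7% of all tested genes were higher. Tlr2 alone was higher (log2 fold change 1.36, adjusted p = 0.000839, edgeR).

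Of 12 proliferation genes 11 were lower, with a median of -3.14, where 17.0% of all tested genes were lower. The largest falls were those of Ccna2 (-3.90), Ccnb1 (-3.62), Plk1 (-3.52) and Aurkb (-3.36). E2f1 had -0.11 and did not pass the threshold. The median of the proliferation genes was thus below the log2 fold changes of Lmnb1 and Hmgb2, although Pcna and E2f1 fell less than either. Of 10 senescence marker genes 9 could be tested, with a median of 0.87. Here 6 were higher and 1, Il1a, was lower, where 15.7% of all tested genes were higher and 17.0% lower. Among the called genes Cdkn2a had a log2 fold change of 3.33, Il1a of -1.86 and Cdkn2b of 1.70. These lists were put together with earlier results of the same samples known, so that their directions are no independent evidence.

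**Figure D5:**
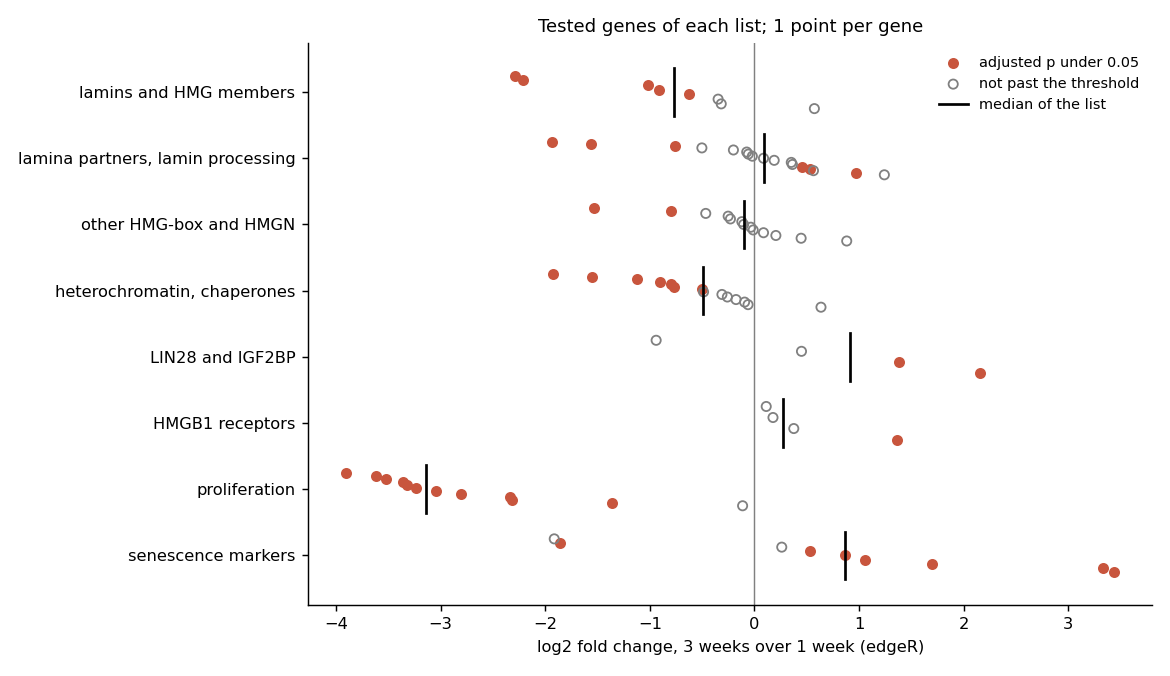
Log2 fold change, 3 weeks over 1 week (horizontal axis), of each tested gene of the members and of 7 lists. Filled red points have an adjusted p under 0.05 in edgeR, open points do not, and vertical lines are medians. The medians were -0.77 for the members, 0.09 for lamina partners, -0.49 for heterochromatin genes and -3.14 for proliferation genes.

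The genes whose log2 CPM followed a member most closely over the 8 samples were named by Pearson's r, as a description across samples that share time points, depth and normalization. For Lmnb1 these were Fam111a (r = 0.997), Usp1 (r = 0.996) and Nasp (r = 0.996), and for Hmgb2 they were Cenpn (r = 0.998), Hat1 (r = 0.996) and Chaf1b (r = 0.996). Hmgb1 was followed by Chaf1b (r = 0.998), Xpo4 and Nasp. Thus Nasp and Chaf1b, which encode histone chaperones, each appeared for 2 members. Lmnb2 was followed by Klk7 (r = 0.974), Krtdap and Zw10, and Lmna by Lrp8 (r = 0.987), Sfxn2 and Pak6. Sox15 (r = 0.995), Hmga1b and Mb21d2 followed Hmga1, whereas Ccne1 (r = 0.971), Med4 and S100a8 followed Hmgb3. The closest genes to Hmga2 were Tns3 (r = 0.983), Mob3a and Cd200.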

How the data were processed

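Gene tables of 8 samples of cultured wildtype KCs, 4 per time point, were used. The authors sequenced poly(A) libraries, trimmed the reads, aligned them to GRCm38 with the CLC Genomics Workbench and deposited, per gene, raw counts of reads on exons, exon junctions, introns and the gene, with RPKM and TPM values. The annotation release, the strand setting and the placing of reads that map to several places are not given in the sources used here. Groups came from the deposited labels. Members and lists were chosen with earlier results of these data known. Tests on exon counts used edgeR 4.0.16 with R 4.3.3 (filterByExpr, TMM, glmQLFit, glmQLFTest, Benjamini-Hochberg, threshold 0.05), unpaired as in the study's statistics although its batches were shared between the times, and the procedure was tested on simulated data. Alternatives were DESeq2 1.42.0, limma 3.58.1 on log2(RPKM + 0.1) and log2(RPKM + 1), upper-quartile scaling, no low-count filter, a minimum of 10 reads per sample, unique exon reads, all gene reads, blocks and the omission of each sample. Spliced reads and the sum of Hmga1 and Hmga1b were added after seeing the data. Ratios of RPKM were tested by two-sided exact permutation. Values are given for the members, for up to 4 called genes of each list with the largest log2 fold change, and for the 3 genes most like each member by Pearson's r of log2 CPM (prior count 2), without predicted genes and other members. Some further list genes are named as called or not, and 1 gene covered by this rule is not reported here. Promoters and let-7a are from RefSeq (GRCm38.p6), untranslated regions from GENCODE M21. Python 3.11.15 was used.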

Additional observations from a re-analysis of the deposited data

Results flagged for a closer look

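In the ratio of Hmgb1 to Hmgb3, 3 weeks replicate 3 stood apart from the other 3-week samples. Its ratio of RPKM was 1.11, against 1.43, 1.42 and 1.45, and its gap to the nearest sample was 0.916 of the whole range of the group, above Dixon's critical value for 4 samples. In that sample Hmgb3 had the highest value of the 3-week group (13.9 RPKM). In all, 28 groups of 4 values were examined and 1 stood out, where chance gives about 1 in 20.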

How the results depend on the processing

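The 8 member fold changes were recomputed under 20 alternatives each, and of these 160 values 151 kept both direction and side of the threshold, 8 (all of Lmnb2) lost the call, 1 (Hmga2 without 3 weeks replicate 4) gained it and 0 reversed. The number of lower members was 4 or 5 and the number of higher members 0 or 1 when each sample was omitted. The study's batches were shared between the times, but the replicate numbers did not show which samples pair (correlations of same-numbered deviations of -0.227, -0.146, -0.146 and 0.249). With them as a block, 1558 genes were lower and 1309 higher in place of 2146 and 1981, 4 members were lower, and the adjusted p of Lmnb2 was 0.0809 (edgeR). For the file numbers 46, 49 and 90 the correlations of deviations were -0.227, 0.2 and 0.249, so that these numbers did not settle the pairing either. With the file number as a block over 3 shared pairs, 1793 genes were lower and 1316 higher, and the adjusted p of Lmnb2 was 0.0572 (edgeR). The block changed no other member's call. In limma on log2(RPKM + 0.1) 3089 genes were lower and 1313 higher, on log2(RPKM + 1) 3090 and 1281, and with spliced reads 1597 and 1197 in edgeR, and 29.8% of the calls were higher in limma in place of 48.0%. For ratios, omission of a sample leaves 35 arrangements with a smallest exact permutation p of 0.0571, so that no call was possible. The log2 differences then ranged from 1.74 to 2.01 for Lmna to Lmnb1, from 1.55 to 1.72 for Lmnb2 to Lmnb1, from 1.11 to 1.30 for Hmgb1 to Hmgb2, from -0.79 to -0.61 for Hmgb1 to Hmgb3 and from -1.56 to -1.29 for Hmga1 to Hmga2.

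Intron reads were too few for a test of 5 of the 8 members. Reads that map to several places limit Hmgb1, Hmgb2, Hmgb3 and Hmga1, and less so Hmga2, of whose exon reads 74.8% were unique.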
